A study of Homo sapiens with 32 samples.

Results

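The genes described here are 10 enzymes that write or erase methylation of lysine 36 of histone H3 (H3K36): the methyltransferases SETD2, NSD1, NSD2, NSD3 and ASH1L and the demethylases KDM2A, KDM2B, KDM4A, KDM4B and KDM4C. They were chosen by name, and a called m6A peak was assigned to a gene when it shared at least 1 bp with the gene's RefSeq body on GRCh38. Of the 474004 peaks in 16 lists, 1079 (0.228%) lay in these genes, which are 10 of the 13420 protein-coding genes with a peak in any list. The peaks come from MeRIP-seq, in which an antibody against N6-methyladenosine (m6A) pulls down RNA fragments (IP) that are then set against the unselected RNA (Input). The study used 786-O, a clear cell renal cell carcinoma (ccRCC) line, and RPTEC, renal proximal tubule epithelial cells immortalized with hTERT. Each was studied as 4 lines without drug treatment, and 2 IP libraries were made from every line. WT is the parental line with intact SETD2. SETD2KO-1 and SETD2KO-2 are clones in which CRISPR/Cas9 inactivated SETD2, so each is 1 clone of that parent. SETD2KO-1R is SETD2KO-1 carrying a full-length, FLAG-tagged wild-type SETD2 transgene, and it is again a single clone. Below, the term SETD2-expressing covers WT together with SETD2KO-1R, so that 4 libraries stand on each side of the comparison in a cell line. Nothing states that the 2 libraries of a line came from separate cultures, so p-values measure the spread between these libraries, which may be technical. Of 32 samples, the 16 Input samples were not analysed here.

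SETD2 is the main enzyme that places trimethylation on H3K36, and it does so along transcribed gene bodies while it travels with elongating RNA polymerase II. The NSD enzymes and ASH1L add mono- and dimethylation, KDM2A and KDM2B remove these lower states, and the KDM4 enzymes remove trimethylation from H3K36 and from H3K9. SETD2 is often mutated in ccRCC, and METTL14, a subunit of the m6A writer complex, can bind trimethylated H3K36. The comparison of SETD2KO with SETD2-expressing libraries asks whether m6A calls on the transcripts of the remaining H3K36 enzymes shift when SETD2 is missing. A called peak needs both RNA and enrichment, and the lists hold neither read counts nor RNA levels, so less RNA and less m6A per RNA cannot be told apart in any result below.

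In 3 of the 10 genes a peak ran across an annotated start site in 8 or more libraries, and the windows of these start sites are shown. How many of all genes had such a peak was not counted, so this number has no background here. Each line gives 150 bases from RefSeq (GRCh38), 5′ to 3′ in the direction of transcription. The 120 bases before the start site are in lower case, and the 30 bases from it are in capitals. For ASH1L the start site used, 155562803, lies inside the gene body, which reaches 155563202, so its lower-case bases belong to that body.
NSD2, chr4:1871273-1871422, plus strand: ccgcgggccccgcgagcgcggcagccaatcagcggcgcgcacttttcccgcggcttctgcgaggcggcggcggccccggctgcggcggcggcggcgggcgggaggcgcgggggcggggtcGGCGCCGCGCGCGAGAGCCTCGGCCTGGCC
KDM2A, chr11:67119143-67119292, plus strand: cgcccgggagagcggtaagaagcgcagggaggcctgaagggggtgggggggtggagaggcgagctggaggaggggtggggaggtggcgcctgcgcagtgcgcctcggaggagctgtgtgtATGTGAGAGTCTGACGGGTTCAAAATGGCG
ASH1L, chr1:155562774-155562923, minus strand: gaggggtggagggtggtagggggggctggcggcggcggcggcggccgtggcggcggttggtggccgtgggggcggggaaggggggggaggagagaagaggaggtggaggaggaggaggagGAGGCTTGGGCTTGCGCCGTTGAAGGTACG
The core of the m6A consensus was searched on both strands as GGACA, as GGACC and as GGACT, and none of the 3 windows holds it on either strand. Of 35116 start windows of the same length in the RefSeq table, 57.6% hold it on at least 1 strand and 35.2% on the transcribed strand. The peaks extend beyond these windows, so this concerns the printed letters alone.

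A peak crossed the ASH1L start in 14 libraries, all 8 of 786-O and 6 of RPTEC, at score percentiles of 30 to 90.5. The score percentile is the rank of a peak's deposited score within its own list, where 100 is the top. The region around this start overlaps ASH1L-AS1, an antisense gene, and the neighbouring gene MSTO1, and the lists give no strand, so the transcript that carried the mark cannot be told apart. A peak crossed the KDM2A start in 9 libraries, 6 of 786-O and 3 of RPTEC, at percentiles of 9.80 to 79.4. The NSD2 start was crossed in 8 libraries, 2 SETD2KO and 6 SETD2-expressing ones, at percentiles of 34.3 to 86.5. SETD2 itself had a peak across its start in 2 libraries, 786-O WT replicate 1 and RPTEC SETD2KO-1R replicate 2. KDM2B had 1, and NSD1, KDM4A, KDM4B and KDM4C had none at the starts in the table, which holds 9 of the 10 genes. NSD3 is not in it.

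Of the 10 genes, 9 had at least 1 peak in all 8 libraries of 786-O and 9 in all 8 of RPTEC. Among all 20037 protein-coding genes, 31.9% had a peak in every 786-O library and 26.8% in every RPTEC library. These genes are long, and among the 5744 genes at least as long as the shortest of them, KDM4A with 55370 bp, the shares were 43.7% and 40.9%. The exception was KDM4C, which had no peak in 786-O SETD2KO-1R replicate 2 or in RPTEC WT replicate 2. Per 100 kb of gene body, introns included, NSD2 had 10.5 ± 3.05 peaks per library (SD, n = 16 libraries) and KDM4A 8.24 ± 3.73, ahead over both cell lines of KDM2A with 5 ± 1.67 and SETD2 with 4.84 ± 1.71. KDM4B followed with 4.71 ± 1.98, NSD3 with 4.44 ± 1.41, ASH1L with 4.33 ± 1.06, KDM2B with 3.42 ± 1.18 and NSD1 with 3.23 ± 0.649. The order differed between the cell lines, with KDM4A at 10.8 in 786-O and 5.64 in RPTEC, next to 5.49 for KDM2A, and KDM4B at 5.56 in 786-O, above KDM2A and SETD2, and 3.86 in RPTEC, below them. Each of these 9 differed from the next in this order by less than the larger SD of the pair. KDM4C stood last at 0.481 ± 0.281, below NSD1 by more than the SD of either.

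**Figure D1:**
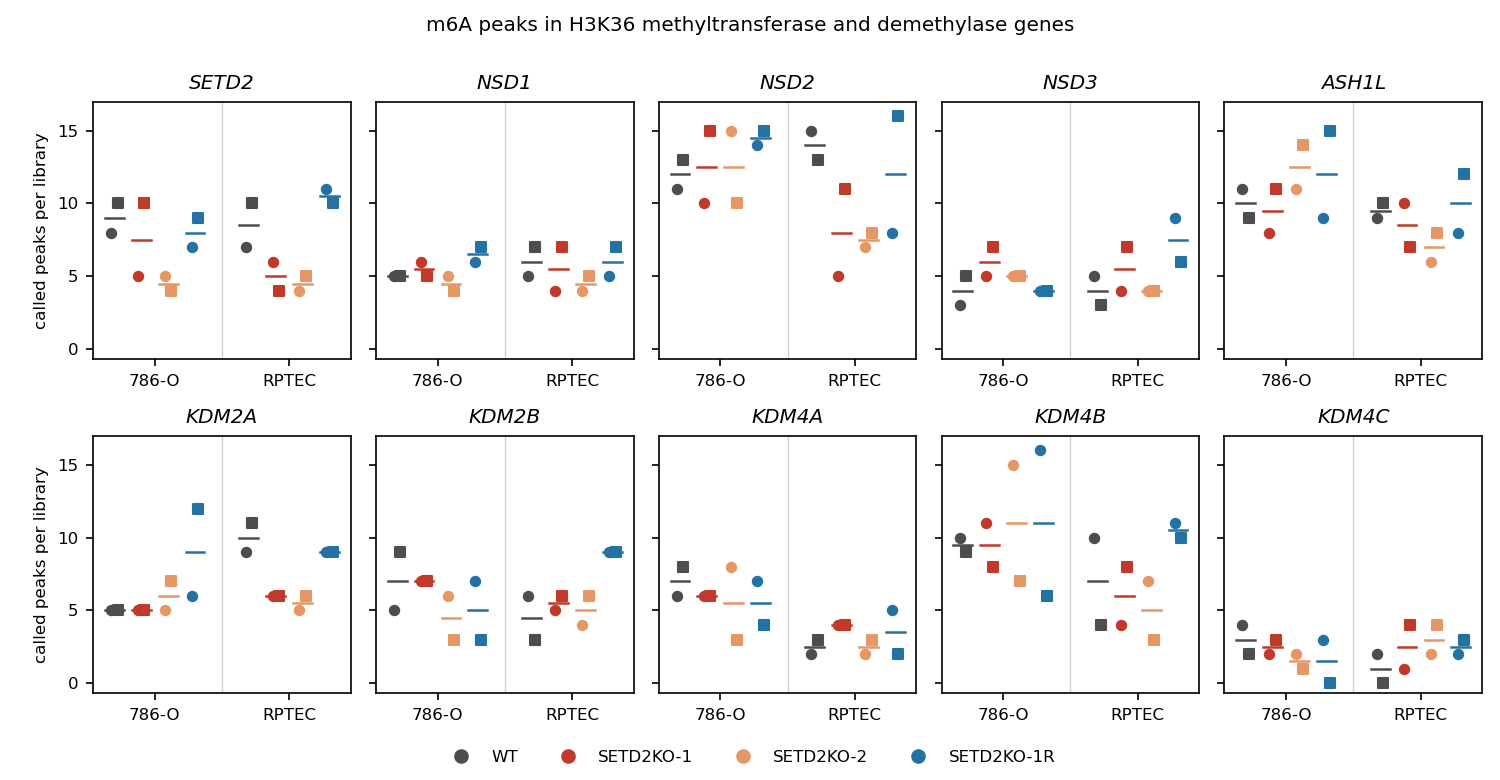
Called peaks per IP library (vertical axis) in each of the 10 genes, with 786-O on the left and RPTEC on the right of each panel. Circles are replicate 1, squares replicate 2, and bars the mean of the 2 libraries of a line; in RPTEC all 4 SETD2KO libraries lie below all 4 SETD2-expressing ones for SETD2 and KDM2A.

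Peaks of all 16 libraries that overlap were merged into regions, and 218 regions lay in the 10 genes. Of these, 16 (7.34%) were called in all 16 libraries, against 4.25% of all 99258 regions, and 73 (33.5%) were called in 1 library alone. The last share was not counted over all 99258 regions. With each cell line merged by itself, 38.1% of the regions in the 10 genes had 1 library in 786-O and 37% in RPTEC, near the 39.4% and 41.6% of all regions. The regions called in all 16 libraries lay in the methyltransferases and in 1 demethylase: 4 in NSD1, 4 in ASH1L, 3 in NSD3, 2 in SETD2, 2 in NSD2 and 1 in KDM2B. KDM2A, KDM4A, KDM4B and KDM4C had none.

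The SETD2 gene (chromosome 3, 47016436 to 47164840, minus strand) is the edited gene, and it is described first. In 786-O it had 8 and 10 peaks in WT, 5 and 10 in SETD2KO-1, 5 and 4 in SETD2KO-2, and 7 and 9 in SETD2KO-1R. In RPTEC the numbers were 7 and 10, 6 and 4, 4 and 5, and 11 and 10 in the same order. All 8 SETD2KO libraries kept at least 4 peaks, so m6A was still called on SETD2 RNA in the knockout clones. In RPTEC the 4 SETD2KO libraries, with 4 to 6 peaks, lay below all 4 SETD2-expressing libraries, with 7 to 11. The means were 4.75 ± 0.957 and 9.5 ± 1.73 (SD, n = 4 each), a difference of -4.75 (95% interval from the exact permutation test, -7 to -1; exact two-sided permutation test, p = 0.0286, the smallest that 70 arrangements allow; adjusted p = 1 over 12185 genes by Benjamini-Hochberg). In RPTEC, 1.41% of genes tested were lower in SETD2KO at that p and 1.01% were higher. The SETD2KO lists of RPTEC were also shorter on average, with 25184.5 ± 4698.4 peaks against 27681.2 ± 3442.2. Per 10000 listed peaks the groups met, with 1.31 to 2.60 in SETD2KO and 2.57 to 4.32 in SETD2-expressing libraries (means 1.97 ± 0.646 and 3.47 ± 0.753, difference -1.5; p = 0.0571, exact permutation test). The length covered by SETD2 peaks was apart, at 1601 to 2341 bp against 3756 to 4520 bp (p = 0.0286, exact permutation test; adjusted p = 0.612), where 2.95% of all genes were lower by covered length. In 786-O the SETD2 difference was -2.50 (interval -6 to 3; p = 0.2, exact permutation test), and the groups overlapped through SETD2KO-1 replicate 2 with its 10 peaks. Without that library the difference was -3.83 and the groups were apart (p = 0.0286, exact permutation test), as were 3.29% of all genes. The library was left out because the groups overlapped through it, so that p is no separate support.

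SETD2 was called in 17 regions over both cell lines. The region at 47083913 to 47084621, 80.6 kb from the 5′ end, was called in all 16 libraries. In 786-O its score percentile was 87.9 and 88.5 in WT, 68.5 and 69.8 in SETD2KO-1, 57.3 and 71.1 in SETD2KO-2, and 78.6 and 87.1 in SETD2KO-1R. All 4 SETD2KO libraries ranked it below all 4 SETD2-expressing ones, with means of 66.7 ± 6.33 and 85.5 ± 4.63, a difference of -18.8 points (exact permutation test, p = 0.0286; adjusted p = 0.718 over 4220 regions). Of the 4220 regions called in all 16 libraries, 2.30% were ranked lower in SETD2KO of 786-O at that p and 1.68% higher. In RPTEC the groups overlapped, with 53.4 to 87.9 in SETD2KO and 78.2 to 92.9 in SETD2-expressing libraries, where 1.49% of these regions were lower and 1.42% higher. It was the only one of the 16 regions in the 10 genes whose groups were apart in either cell line. Ranks at these regions were compared after the data had been seen.

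The strongest SETD2 calls of the rescued clones lay elsewhere in the gene, and this is given as a description. The region at 47062301 to 47062811, about 102 kb from the 5′ end, was called in 786-O SETD2KO-1R replicate 1 at percentile 90.9 and in both RPTEC SETD2KO-1R libraries at 92.8 and 94.3. Outside the rescued clones it was called in 1 library, 786-O SETD2KO-1 replicate 2, at 49.1. The region at 47056984 to 47057748 had percentiles of 95.8, 97.5 and 95 in the same 3 rescued libraries, against 37.2 to 78.1 in the 4 other libraries that called it. The last region of the gene, at 47016902 to 47017514, was at 98.7 in 786-O SETD2KO-1R replicate 2 and 95.1 in RPTEC SETD2KO-1R replicate 1, against 51.1 to 83.5 in the 7 others that called it. The 786-O SETD2KO-1R replicate 2 library called neither of the first 2 of these regions. The best SETD2 percentile was 95.8 and 98.7 in 786-O SETD2KO-1R and 97.5 and 96.5 in RPTEC SETD2KO-1R, and 75.5 to 97.5 in all other libraries. In RPTEC SETD2KO-1R replicate 2 the best peak lay at 47124525 to 47124786, a place called in no other RPTEC library. Merging all 16 libraries put it in a further region, at 47123955 to 47124815, which all 8 SETD2-expressing libraries and 4 of the SETD2KO ones called. Within that region 6 RPTEC libraries had calls at 47123983 to 47124311, at a mean percentile of 34.8. These regions were picked out after their calls were seen. Reads of the transgene's coding sequence map to the same exons, so transgene and endogenous RNA cannot be told apart in the rescued clones.

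**Figure D2:**
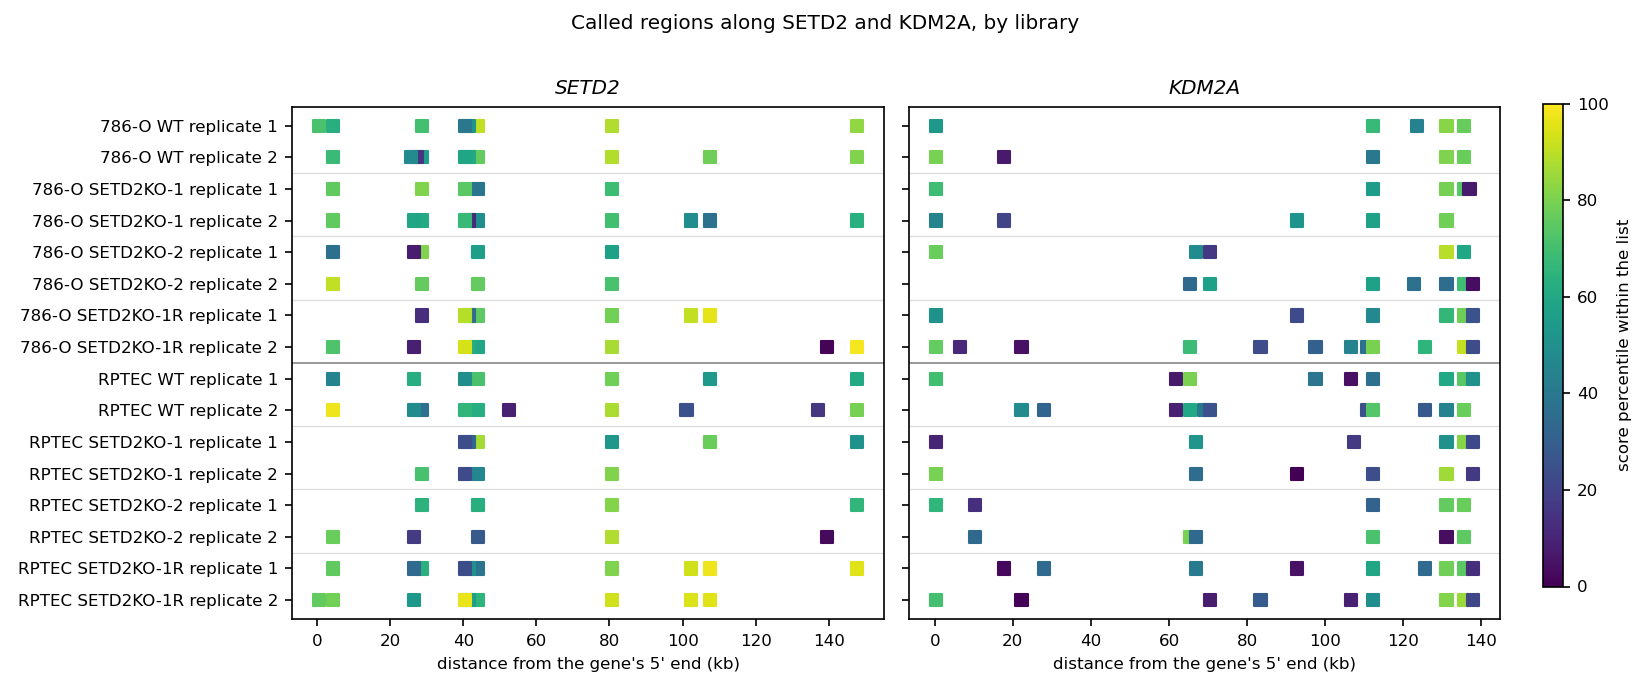
Regions of SETD2 (left) and KDM2A (right) called in each of the 16 libraries (rows), plotted by their distance in kb from the gene's 5′ end and coloured by score percentile within the list. The SETD2 regions about 102 and 107 kb from the 5′ end are brightest in 3 of the 4 SETD2KO-1R libraries, and KDM2A has 5 to 6 peaks in each RPTEC SETD2KO library against 9 to 11 in the SETD2-expressing ones.

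The NSD family and ASH1L were looked at for higher calls in SETD2KO, and none of the 4 passed the test with all libraries in either cell line. NSD1 (chromosome 5, 177131798 to 177300213), which adds mono- and dimethylation and is mutated in Sotos syndrome, had 5 and 5 peaks in 786-O WT, 6 and 5 in SETD2KO-1, 5 and 4 in SETD2KO-2, and 6 and 7 in SETD2KO-1R. In RPTEC it had 5 and 7, 4 and 7, 4 and 5, and 5 and 7. Its groups overlapped in both, with differences of -0.75 (interval -3 to 1) in 786-O and -1 (interval -3 to 2) in RPTEC. The 4 regions of NSD1 called in every library lay near the 5′ end (177135313 to 177135895, percentile 73.1 to 99.7), in the middle (177209211 to 177210162 and 177210539 to 177212034) and near the 3′ end (177293553 to 177295673).

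NSD2 (chromosome 4, 1871393 to 1982192), an H3K36 dimethyltransferase known from its translocation in multiple myeloma, held the most peaks of the 10 genes and had the highest median best percentile, 97.2 over the 16 libraries, against 92.5 for NSD3, 91.8 for KDM4A and 90.7 for NSD1. The single highest percentile, 99.7, was that of NSD1 in RPTEC WT replicate 2. In 786-O it had 11 and 13 peaks in WT, 10 and 15 in SETD2KO-1, 15 and 10 in SETD2KO-2, and 14 and 15 in SETD2KO-1R, and the groups overlapped. In RPTEC it had 15 and 13, 5 and 11, 7 and 8, and 8 and 16. The RPTEC means were 7.75 ± 2.50 in SETD2KO and 13 ± 3.56 in SETD2-expressing libraries (SD, n = 4 each; difference -5.25, interval -11 to 3; exact permutation test, p = 0.0857), and SETD2KO-1R replicate 1, with 8 peaks, lay within the SETD2KO range. Without that library, through which the groups overlapped, they were apart, with a difference of -6.92 (exact permutation test, p = 0.0571). NSD2 shared this with 3.96% of all genes, and that p is no separate support. Its best peak ranked between 91.9 and 99.5 in every library, and the region at 1917763 to 1918389 was called in all 16 at 86.1 to 99.5. A further region, at 1976215 to 1976526, was called in 5 libraries, each time at 95.4 to 98.8, and was picked out after its calls were seen.

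NSD3 (chromosome 8, 38269704 to 38382271), the third NSD paralogue, had 3 and 5 peaks in 786-O WT, 5 and 7 in SETD2KO-1, 5 and 5 in SETD2KO-2, and 4 and 4 in SETD2KO-1R. This was the one member with a higher mean in 786-O SETD2KO, 5.5 ± 1 against 4 ± 0.816, and the groups shared the value 5 (difference 1.5, interval 0 to 4; exact permutation test, p = 0.114). Without 786-O WT replicate 2, through which the groups overlapped, they were apart, with a difference of 1.83 (p = 0.0286, exact permutation test). NSD3 shared this with 4.11% of all genes, and that p is no separate support. In RPTEC it had 5 and 3, 4 and 7, 4 and 4, and 9 and 6 peaks, with the higher mean in the SETD2-expressing libraries. Its region at 38329584 to 38330127 ranked between 81.9 and 96.3 in all 16 libraries.

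ASH1L (chromosome 1, 155335268 to 155563202), a Trithorax-group dimethyltransferase, had 11 and 9 peaks in 786-O WT, 8 and 11 in SETD2KO-1, 11 and 14 in SETD2KO-2, and 9 and 15 in SETD2KO-1R, so that both groups had a mean of 11. In RPTEC it had 9 and 10, 10 and 7, 6 and 8, and 8 and 12 (difference -2, interval -6 to 2). Of the 158 ASH1L peaks, 19 also overlapped ASH1L-AS1. Away from the start, 3 regions were called in every library, and the highest ranked of them, at 155521259 to 155521878, had a mean percentile of 78.8.

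Among the demethylases, KDM2A had fewer peaks in RPTEC SETD2KO at the unadjusted threshold, and the other 4 passed no test. KDM2A (chromosome 11, 67119263 to 67258082), which removes dimethylation at H3K36 and binds CpG islands, had 9 and 11 peaks in RPTEC WT, 6 and 6 in SETD2KO-1, 5 and 6 in SETD2KO-2, and 9 and 9 in SETD2KO-1R. The SETD2KO libraries, at 5 to 6, lay below the SETD2-expressing ones, at 9 to 11, with means of 5.75 ± 0.5 and 9.5 ± 1 (SD, n = 4 each; difference -3.75, interval -6 to -3; exact permutation test, p = 0.0286; adjusted p = 1). The length covered by its peaks was also apart, at 2341 to 3086 bp against 4059 to 4581 bp, beside the same 2.95% of all genes. Per 10000 listed peaks the groups overlapped, at 1.90 to 3.12 and 2.88 to 4.76, with means of 2.35 ± 0.562 and 3.51 ± 0.85 (difference -1.15; p = 0.0857, exact permutation test). With each list limited to the 50% of peaks that scored highest, the difference was -0.75 (p = 0.571, exact permutation test). A high-ranked call was missing as well, since the region at 67254472 to 67255065, at 73.9 to 85 in the RPTEC libraries that called it, had no call in SETD2KO-1 replicate 2. The 3 KDM2A regions called in 14 or 15 libraries, at 67231347 to 67231838, 67249811 to 67250833 and 67254472 to 67255065, were called in 6, 8 and 6 of the 8 SETD2KO libraries. In the 8 SETD2-expressing libraries the same regions were called in 8, 7 and 8. In 786-O KDM2A had 5 and 5, 5 and 5, 5 and 7, and 6 and 12 peaks, and the SETD2KO-1R replicate 2 library alone was high. The best KDM2A percentile overlapped between the groups in both cell lines.

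KDM2B (chromosome 12, 121408461 to 121582279), a KDM2A paralogue that recruits a Polycomb complex to CpG islands, had 3 to 9 peaks in each of 786-O and RPTEC. In 786-O its peak numbers were 5 and 9, 7 and 7, 6 and 3, and 7 and 3 in the order WT, SETD2KO-1, SETD2KO-2, SETD2KO-1R, and in RPTEC 6 and 3, 5 and 6, 4 and 6, and 9 and 9. In both cell lines the SETD2KO range lay inside the SETD2-expressing one. Its region at 121429818 to 121430652 was called in all 16 libraries at a mean percentile of 50.8. Of its 95 peaks, 28 also overlapped RNF34, MIR7107 or KDM2B-DT. The region at 121509689 to 121510251 was called in 7 libraries of 786-O and 1 of RPTEC, and the region at 121441263 to 121441786 in none of 786-O and 4 of RPTEC. The last 2 regions were picked out after their calls were seen.

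KDM4A (chromosome 1, 43650149 to 43705518), which acts on trimethylated H3K9 and H3K36, had 3 to 8 peaks in 786-O SETD2KO and 4 to 8 in 786-O SETD2-expressing libraries, and 2 to 4 and 2 to 5 in RPTEC. Of its 73 peaks, 17 also overlapped KDM4A-AS1 or LOC124904165. Its most called region, at 43677709 to 43678533, had calls in 7 libraries with SETD2KO and in 4 that express SETD2. The region at 43668832 to 43669392 was called in 10 libraries, at 74.7 to 96.5, and was picked out after its calls were seen. KDM4B (chromosome 19, 4969113 to 5153598), a hypoxia-inducible paralogue, had 10 and 9 peaks in 786-O WT, 11 and 8 in SETD2KO-1, 15 and 7 in SETD2KO-2, and 16 and 6 in SETD2KO-1R. The means of these lines lay at 9.5 to 11, and replicates differed by more than that spread in every line but WT. In RPTEC KDM4B had 10 and 4, 4 and 8, 7 and 3, and 11 and 10. Without WT replicate 2, through which the groups overlapped, they were apart, differing by -4.83 peaks (p = 0.0571, exact permutation test). So were those of 4.4% of all genes, and that p is no separate support. The best covered KDM4B region, at 5114853 to 5116945, was called in 15 libraries. KDM4C (chromosome 9, 6720863 to 7175648) had 0 to 4 peaks per library and a median best percentile of 34 over the 16 libraries, with a list lacking a peak counted as 0. Its most called region, at 6835151 to 6835729 in 9 libraries, overlaps the pseudogene ACTG1P14, so reads of the actin gene family may be split there.

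**Figure D3:**
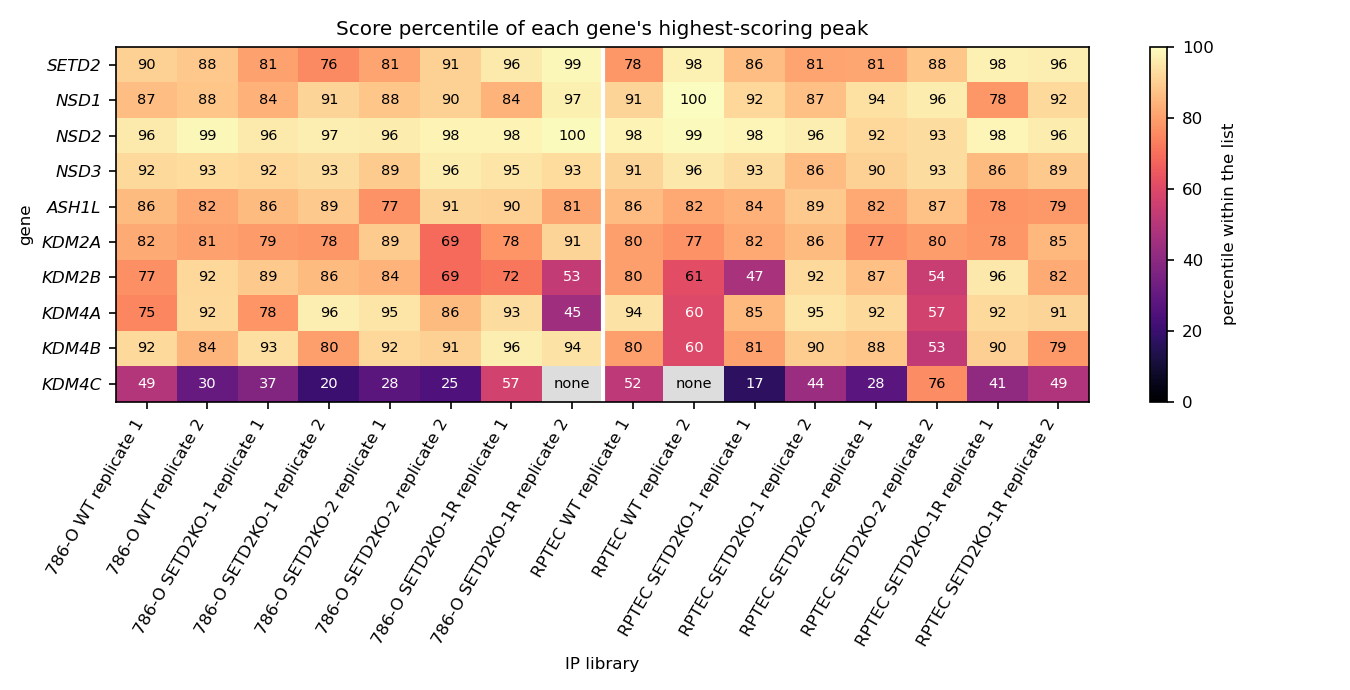
Score percentile (colour and number, 0 to 100) of the highest-scoring peak in each gene (rows) and IP library (columns), with the white line between 786-O and RPTEC and grey where no peak was called. NSD2 stays at 91.9 or above in every library, SETD2 is high in all 4 SETD2KO-1R libraries, and KDM4C is lowest in most.

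Over the 10 genes, 0 were called in 786-O by peak number, 0 higher and 0 lower, where 1.52% of 12430 genes were higher and 0.901% lower in SETD2KO at an unadjusted p under 0.05 by the exact permutation test. In RPTEC 2 were lower, SETD2 and KDM2A, and 0 higher, where 1.41% of 12185 genes were lower and 1.01% higher. No gene of any kind passed adjustment, with a smallest adjusted p of 1 in each cell line. With 70 arrangements no p can fall below 0.0286, so a gene could pass adjustment only if most genes reached that p. Failing adjustment is thus set by the 4 against 4 design and says little about single genes. The mean was lower in SETD2KO for 7 of the 10 genes in 786-O and for 8 in RPTEC. In 786-O, 4996 of all 12430 genes were lower and 5597 higher, with a median difference of 0, while that of the 10 genes was -0.375. In RPTEC, 6530 of all 12185 genes were lower and 3711 higher, with a median difference of -0.25 peaks, while that of the 10 genes was -1.75. Genes with more peaks can differ by more peaks. Scaled to 10000 listed peaks, the median difference of the 10 genes was -0.283 in RPTEC and -0.341 in 786-O, beside -0.0166 and -0.0272 over all genes. On that scale 9 of the 10 genes in 786-O and 8 in RPTEC had the lower mean in SETD2KO, and so did 7068 of all 12430 genes in 786-O and 6430 of 12185 in RPTEC. For the best percentile, 0 of the 10 genes were called in either cell line, against 4.68% of all genes in 786-O and 4.08% in RPTEC. The best SETD2 percentile averaged 81.9 ± 6.29 in SETD2KO and 93.3 ± 4.73 in SETD2-expressing libraries of 786-O (exact permutation test, p = 0.0857). Without SETD2KO-2 replicate 2 the groups were apart by -14.3 points, as were 8.52% of all genes. In RPTEC the best SETD2 percentile was 84.1 ± 3.54 and 92.4 ± 9.51. Without WT replicate 1 the groups were apart by -13.1 points, as were 6.04% of all genes. In both cell lines the groups overlapped through the library left out, so these separations are no separate support. The SETD2KO difference was also compared between the cell lines, and for none of the 10 genes did it differ (permutation p from 0.12 to 0.877; adjusted p from 0.841 to 1).

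**Figure D4:**
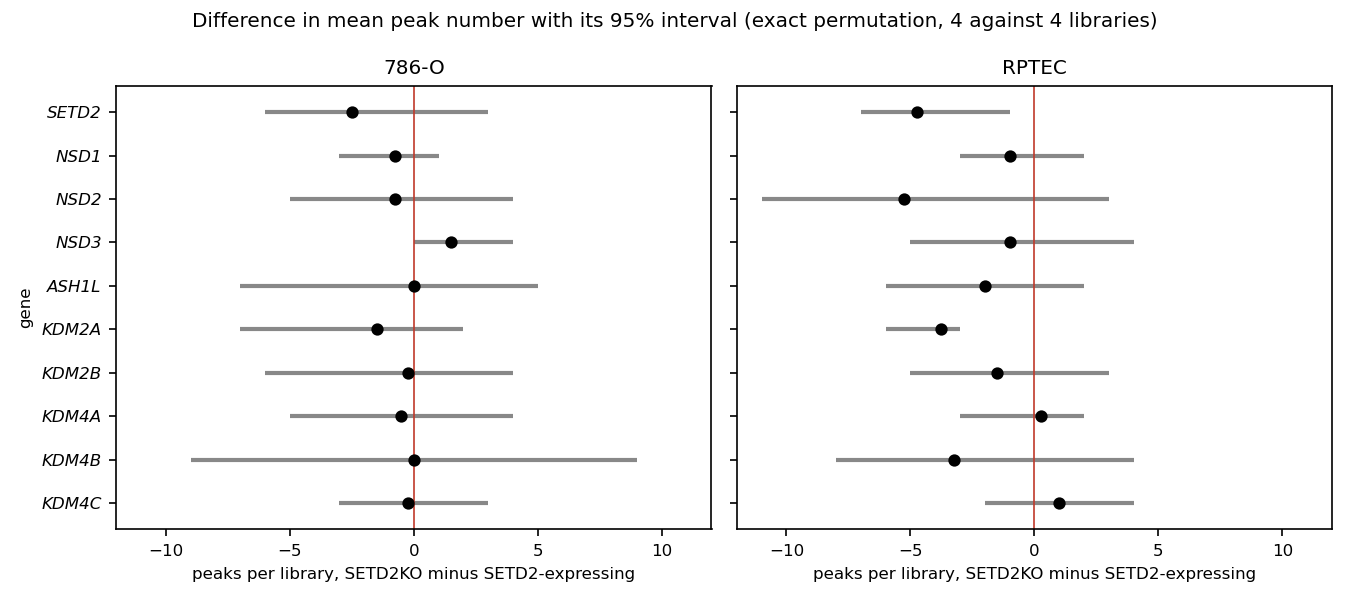
Mean peaks per library in 4 SETD2KO minus 4 SETD2-expressing libraries (points, horizontal axis) for each gene, with the 95% interval from the exact permutation test (grey lines), for 786-O and RPTEC. Intervals leave out 0 for SETD2 and KDM2A in RPTEC, and those of the other genes reach or span it.

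The intervals show which shifts the 8 libraries of a cell line do not exclude. For the writers other than SETD2, the upper ends in 786-O were 1 peak per library for NSD1, 4 for NSD2, 4 for NSD3 and 5 for ASH1L, and in RPTEC 2, 3, 4 and 2. For NSD1 in 786-O a rise of more than 17.4% of the SETD2-expressing mean lies outside the interval, while for NSD3 a rise of 100% does not. For the demethylases the lower ends reached -9 in 786-O, for KDM4B, and -8 in RPTEC, again for KDM4B, so falls up to that size lie inside the KDM4B intervals.

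By region, 181 regions of 786-O and 165 of RPTEC lay in the 10 genes. None had calls in the complete SETD2KO side and nowhere else, where 0.475% of 78921 regions in 786-O and 0.263% of 68428 in RPTEC were. Likewise none had calls in the complete SETD2-expressing side and nowhere else, where 0.147% and 0.212% were. A looser rule asked for 3 libraries against 0 or for 4 against at most 1. By it, 1 region in 786-O leaned to SETD2KO (2.67% of all regions did) and 3 to SETD2-expressing (1.22%). The one toward SETD2KO was in KDM4A at 43675636 to 43676131, called in 3 SETD2KO libraries at a mean percentile of 6.45. The others were in SETD2 at 47122947 to 47123724 (4 SETD2-expressing and 1 SETD2KO library), KDM4A at 43686178 to 43686636 and KDM2B at 121423233 to 121423647, where RNF34 also lies (3 and 0 each). In RPTEC, 0 leaned to SETD2KO (1.55% of all regions) and 6 to SETD2-expressing (1.88%). Of these, 2 were in SETD2, at 47137813 to 47138759 and 47160201 to 47160640, and 1 in NSD2, at 1969769 to 1970743, each called in 4 SETD2-expressing and 1 SETD2KO library. The other 3, each called in 3 and 0, were in NSD3 at 38288663 to 38288984, KDM2B at 121572283 to 121572828 and KDM4B at 5080495 to 5081174. The SETD2 region at 47160201 to 47160640, 4.42 kb from the 5′ end, reached a percentile of 97.5 in RPTEC WT replicate 2 and was called in none of the SETD2KO-1 libraries. Around the same place 786-O had calls in each of the 4 libraries lacking SETD2 and in 3 of those expressing it.

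Between the cell lines, peaks were compared per 10000 listed peaks, because 786-O lists held 25710 to 39670 peaks and RPTEC lists 19249 to 31207. Of the 10 genes, 0 differed at an adjusted p under 0.05 (exact permutation test over 12870 arrangements of 8 against 8 libraries), where 7.02% of 13420 genes did. The smallest p was that of KDM4A, with 1.80 ± 0.382 in 786-O and 1.2 ± 0.434 in RPTEC (SD, n = 8 each; 0.669-fold; exact permutation test, p = 0.014; adjusted p = 0.105). NSD3 was next, with 1.45 ± 0.315 and 1.96 ± 0.554 (exact permutation test, p = 0.0323; adjusted p = 0.175). NSD2 and ASH1L had nearly equal means, 3.97 and 3.93 for NSD2 and 3.47 and 3.38 for ASH1L. In the WT libraries alone, KDM2A had 1.59 and 1.37 in 786-O and 3.30 and 4.76 in RPTEC, NSD2 had 3.49 and 3.57 against 5.51 and 5.62, and NSD1 had 1.59 and 1.37 against 1.84 and 3.03. KDM4A was the other way round, with 1.9 and 2.2 against 0.734 and 1.30. These 4 of the 10 genes did not overlap between the WT libraries, and neither did 44.3% of 11749 genes, so their number is near the background. The lists of the 2 cell lines carry different experiment names, and whether they were made in separate runs is not given in the sources used here, so a part of such a run in these values was not tested.

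**Figure D5:**
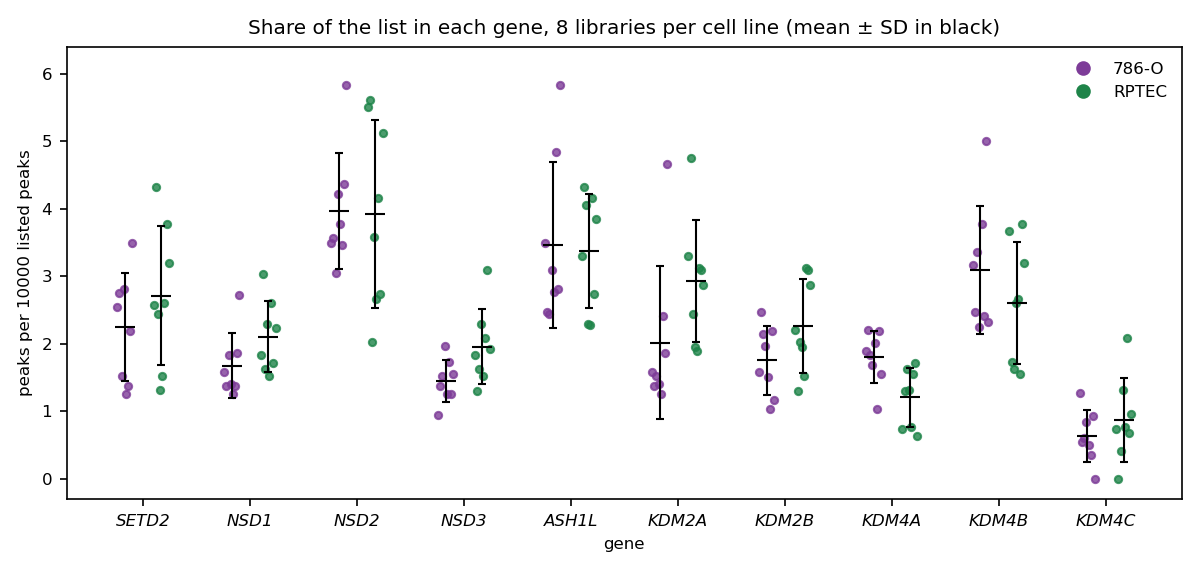
Peaks per 10000 listed peaks (vertical axis) in each gene, with 8 libraries of 786-O (purple) and 8 of RPTEC (green) as points and mean ± SD in black. The points of the 2 cell lines overlap for every gene, and KDM4A lies lower in RPTEC.

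Other genes of the H3K36 pathway were counted from lists chosen with results of these data known. Of 7 other enzymes named for H3K36, 5 had a peak in each cell line, and PRDM9, which acts in meiosis, and KDM4E had none. For these lists a peak in any 1 library of the cell line counted. By that count 12430 of all 20037 protein-coding genes had a peak in 786-O and 12185 in RPTEC. In 786-O, SMYD2, a lysine methyltransferase of H3K36 and of non-histone proteins, was lower in SETD2KO at the unadjusted threshold. It had 1 and 3 peaks in WT, 2 and 1 in SETD2KO-1R and 0 in all 4 SETD2KO libraries (exact permutation test, p = 0.0286; adjusted p = 1), and 0.901% of all genes were lower there. In RPTEC its groups overlapped by peak number. By best percentile in 786-O, 3 of these enzymes were called, SMYD2 and RIOX1 lower and KDM8 higher, where 4.68% of all genes were called in either direction. By covered length SMYD2 and RIOX1 were lower, where 5.22% were called. None of these enzymes was called in RPTEC by any of the 4 measures. Of 16 readers of H3K36 methylation, among them PSIP1, DNMT3A, MSH6 and METTL14, all had a peak in both cell lines, and by peak number 0 were higher or lower. Per 10000 listed peaks, PSIP1 and MSH6 were lower in 786-O and GLYR1 in RPTEC, where 4.49% and 4.12% of all genes were called in either direction, and by best percentile BRPF1 was higher in 786-O, 1 of 16 readers beside the same 4.68% of all genes. These calls were at p = 0.0286 (exact permutation test), and none passed adjustment. Of 5 genes for SETD2 recruitment, partners and turnover, POLR2A, IWS1, SUPT6H, HNRNPL and SPOP, 0 were called by peak number in either cell line. The labelled cell types were checked with marker genes. All 8 renal epithelial markers, PAX8 and KRT8 among them, had a peak in each cell line, though CDH16 had one in 2 libraries of 786-O and 1 of RPTEC. Of the 7 markers of proximal tubule function, GGT1 had a peak in all 8 libraries of each cell line, and ANPEP in 8 of RPTEC and 2 of 786-O. CUBN had one in 1 library of 786-O, and LRP2, AQP1, SLC34A1 and MME had none in any library. Per the same test, 0 of the markers of either list differed by peak number. By best percentile 1 marker, KRT18, was lower in 786-O SETD2KO, with a mean of 93.7 against 98.3 (exact permutation test, p = 0.0286, adjusted p = 0.61). In that measure 4.68% of all genes were called in either direction.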

How the data were processed

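The deposited files are 1 list of called m6A peaks per IP library. Per the labels and the methods, the authors aligned reads with STAR to hg38, used HTSeq, scaled by an E. coli RNA spike-in and, library by library, set IP against Input in MACS2 to call peaks. The deposited score of a peak is a whole number of unstated scale and served only as a percentile within its list. Other deposited values are the summit offset, used in an alternative, and columns that are 0 throughout. The lists hold no read counts, so depth per library is unknown and no counting interval can be given; list length (19249 to 39670 peaks) is not depth.

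Starts were made 1-based. Gene bodies came from RefSeq (GRCh38.p14), without exons; all 10 symbols matched. Groups came from sample titles. Peak number, best percentile and region calls were compared by exact two-sided permutation tests over all protein-coding genes with a peak, adjusted by Benjamini-Hochberg. The named genes are the 10 enzymes; for each, the most called region and every region leaning to one side are given, and any further region was picked out after its calls were seen. Members and lists were chosen with earlier results of these data known. Alternatives changed score and length limits, overlap, scaling, controls, clones and libraries. The steps were tested on simulated data, and merging was checked against bedtools 2.31.1. Tests ran in SciPy 1.17.1 under Python 3.11.15, tables in pandas 2.3.3 and NumPy 2.4.6, and plots in Matplotlib 3.10.9.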

Additional observations from a re-analysis of the deposited data

Results flagged for a closer look

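In groups of 4 libraries, a library whose gap to its nearest neighbour, as a share of the group's range, exceeded Dixon's 95% critical value was noted, which chance alone gives in about 1 of 20 groups. Of 80 groups tested over the 10 genes, 10 had such a library, and because peak numbers are small whole numbers, a group in which the other 3 libraries tie exceeds the limit with any departure. By peak number in 786-O, SETD2 had 10 peaks in SETD2KO-1 replicate 2 against 4 to 5 in the other SETD2KO libraries. NSD3 had 7 in SETD2KO-1 replicate 2 against 5 in each of the others. KDM2A had 7 in SETD2KO-2 replicate 2 against 5, and 12 in SETD2KO-1R replicate 2 against 5 to 6 in the other SETD2-expressing libraries. In RPTEC, NSD3 had 7 in SETD2KO-1 replicate 2 against 4 in each of the others. KDM2A had 5 in SETD2KO-2 replicate 1 against 6, and 11 in WT replicate 2 against 9. KDM4B had 4 in WT replicate 2 against 10 to 11. By best score percentile in RPTEC, SETD2 was at 78.2 in WT replicate 1 against 96.5 to 97.5 in the other SETD2-expressing libraries, and KDM4A at 59.9 in WT replicate 2 against 91.2 to 94.5. The difference between SETD2KO and SETD2-expressing libraries did not pass the threshold between the cell lines for any of the 10 genes.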

How the results depend on the processing

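The number of genes whose groups did not overlap (apart) by peak number in RPTEC, 2, became 1 (SETD2) with the upper 50% of each list and with lists cut to equal length, and 0 with peaks of at least 288 bp and per 10000 listed peaks. With WT alone as control it became 3, NSD2 added, where 7.48% of all genes were apart. Under those settings the SETD2 difference was -2.75 (minimum length, p = 0.0857, exact permutation test) and -1.50 (per 10000), and that of KDM2A -2.75 (equal length, p = 0.2, exact permutation test) and -3.25 (minimum length). In 786-O the count, 0, became 1 with SETD2KO-2 alone (all genes 6.15%). Genes apart by best percentile, 0 in both cell lines, became 1 in 786-O with SETD2KO-1 alone (all genes 14.1%) and with ranks at regions called in all 16 libraries (added after seeing the data), and 1 in RPTEC with SETD2KO-2 alone (all genes 14%). Member regions in SETD2-expressing libraries alone, 0 in both, became 1 in 786-O with lists cut to equal length (0.671% of member regions, 0.207% of all regions). With WT alone as control they became 2 in 786-O (1.32%, all 1.68%) and 4 in RPTEC (2.82%, all 1.69%), with SETD2KO-1 alone 2 in RPTEC (1.24%, all 0.593%), and with SETD2KO-2 alone 2 in 786-O (1.19%, all 0.472%) and 2 in RPTEC (1.32%, all 1.07%). Those in SETD2KO alone, 0 in both, became 1 in each with SETD2KO-1 alone (all regions 2.33% and 1.88%), and with SETD2KO-2 alone 2 in 786-O (all 1.92%) and 1 in RPTEC (all 1.19%), below the share of all regions each time. Leaving out a line or a library makes it easier for a gene to be apart or a region complete. Genes differing between cell lines, 0, became 4 with the WT libraries alone, where not overlapping (2 against 2) stood in for the test and held for 44.3% of all genes.

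Leaving out each library in turn, genes apart by peak number ranged from 0 to 1 in 786-O (SETD2 without SETD2KO-1 replicate 2, NSD3 without WT replicate 2) and from 2 to 3 in RPTEC (KDM4B added without WT replicate 2, NSD2 without SETD2KO-1R replicate 1), where 3.29% to 4.6% and 3.35% to 4.4% of all genes were apart. Those apart by best percentile ranged from 0 to 1 in 786-O (SETD2 without SETD2KO-2 replicate 2, NSD2 without WT replicate 1) and 0 to 2 in RPTEC (SETD2 and ASH1L without WT replicate 1), beside 7.12% to 8.52% and 5.99% to 7.52% of all genes. Regions in SETD2KO alone ranged from 0 to 1 in 786-O (without SETD2KO-2 replicate 2, 0.571% of member regions, all 1.17%) and were 0 in RPTEC. Regions in SETD2-expressing libraries alone ranged from 0 to 1 in 786-O (at most 0.571%, all 0.214% to 0.447%) and 0 to 2 in RPTEC (at most 1.34%, without WT replicate 2, all 0.333% to 0.616%), and genes differing between cell lines from 0 to 1.

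The sample titles do not say whether the replicate numbers pair the libraries. Deviations of same-numbered libraries correlated at -0.06 to 0.14 in 786-O and -0.13 to 0.14 in RPTEC. With 2 libraries per line, these values do not settle whether the libraries are paired. With a replicate block, 0 genes in 786-O and 3 in RPTEC, NSD2 added, reached the smallest p the block allows, 0.0556 (exact permutation test), by peak number, and 0 in each by best percentile. No called difference changed direction. Depth is unknown, so a missing call does not show missing m6A.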

Other observations

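Among regions with a mean percentile of at least 80 and calls in 3 to 15 libraries, a rule set after the data were seen, 8 lay in the genes: 2 in NSD2, 2 in KDM2B, 2 in KDM4B, 1 in KDM4A and 1 in SETD2. The mean rank chose them, and single calls in them went down to 49.1. RPTEC SETD2KO-1R replicate 1 called all 8, and 786-O SETD2KO-1 replicate 2 and SETD2KO-1R replicate 1 called 7 each. RPTEC WT replicate 2 and SETD2KO-2 replicate 2 called 0, 786-O SETD2KO-1R replicate 2 and RPTEC SETD2KO-1 replicate 1 called 1 each, and 786-O SETD2KO-2 replicate 2 called 2. Replicates of the same clone thus lay at both ends, with 7 and 1 calls in 786-O SETD2KO-1R. The 5 libraries with 0 to 2 calls had lists of 19249 to 28934 peaks, and the 3 with 7 or 8 had lists of 29154 to 35555. Among the other 8 libraries, RPTEC WT replicate 1, with 27238 peaks, called 5, RPTEC SETD2KO-1R replicate 2, with 31207, called 4, and the longest list, with 39670, called 6. For the NSD2 region at 1900348 to 1901107, the 9 libraries that called it gave percentiles of 56 to 97.9, and the other libraries listed no peak there. The part of list length in these calls was not tested.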
